A study of Mus musculus with 9 samples.

Results

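The glycolysis and hypoxia genes are a set of 38 genes chosen by symbol, among them the enzymes that turn glucose into lactate, the carriers of glucose and lactate, the switches that set glycolytic flux, the hypoxia factor HIF1 with its hydroxylases, and further genes that HIF1 is known to switch on. All 38 were found among the 15343 genes measured (1 of them, Pkm, under its other symbol), and all 38 passed the filter on low values (10 normalized counts or more in 3 or more libraries), as did 13895 genes in all. RNA was sequenced from intraperitoneal primary macrophages of mice marked WT (wild type) in the titles, of a strain written CF7B1/6, and all 9 libraries came from cells given 100 ng/ml LPS (lipopolysaccharide, a bacterial cell wall component) for 6 h. In the DHA group the cells were first given DHA, the fatty acid docosahexaenoic acid of fish oil, at 100 µM over 1 h, and in the cpdA group 10 µM cpdA for 1 h, a small molecule that the labels give as an agonist of the fatty acid receptor Gpr120. The LPS group has no pretreatment or vehicle in its labels, each group had 3 libraries, and unstimulated cells were not analysed here. The labels do not say whether libraries of a group came from separate animals or cultures, so p-values measure only the spread between these libraries, which may be technical.

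Glycolysis splits glucose into pyruvate in the cytosol, and lactate dehydrogenase turns pyruvate into lactate, which leaves the cell through monocarboxylate transporters. Macrophages that sense LPS are known to lean on this route, and to stabilise HIF1α, which binds DNA at a short core motif and raises the transcription of glucose carriers and glycolytic enzymes. The prolyl hydroxylases encoded by Egln1 and Egln3 mark HIF1α for destruction when oxygen is present.

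The core motif of HIF1 was searched as ACGTG and GCGTG on both strands in RefSeq promoter windows (build GRCm38.p6) that run from 250 bases before to 50 bases after each gene's start; CACGTG counts as 2 overlapping matches, 1 on each strand. Of the 36 members with a window, 29 held at least 1 match (80.6%) and 23 held 2 or more (63.9%). Among the 11451 measured genes with a window 61.1% held at least 1 match and 32.9% held 2 or more, and over all 27025 windows the shares were 43.8% and 20.8%. The windows below belong to Hk3, Pfkl, P4ha1, Bnip3 and Ldha. The first 4 were the members that limma called lower with DHA in a fit of 7 libraries. The Ldha window held the most matches, 7 in all. The windows are each 300 bases and written 5′ to 3′ on the gene's strand with matches in capitals. They lie at chr13:55021336-55021635 (minus strand), chr10:78009758-78010057 (minus), chr10:59323046-59323345 (plus), chr7:138909457-138909756 (minus) and chr7:46845554-46845853 (plus).
Hk3: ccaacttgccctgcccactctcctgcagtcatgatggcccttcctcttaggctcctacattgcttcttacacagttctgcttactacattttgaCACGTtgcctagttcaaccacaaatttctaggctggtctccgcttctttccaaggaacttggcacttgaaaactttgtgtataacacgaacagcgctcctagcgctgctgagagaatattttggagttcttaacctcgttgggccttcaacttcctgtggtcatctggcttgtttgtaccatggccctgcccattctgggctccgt
Pfkl: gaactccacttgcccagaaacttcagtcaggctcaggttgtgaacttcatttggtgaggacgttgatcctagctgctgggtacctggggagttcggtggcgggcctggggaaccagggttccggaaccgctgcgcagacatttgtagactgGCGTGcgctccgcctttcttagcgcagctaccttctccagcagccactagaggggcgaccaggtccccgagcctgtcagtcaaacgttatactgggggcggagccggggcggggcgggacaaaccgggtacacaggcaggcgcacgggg
P4ha1: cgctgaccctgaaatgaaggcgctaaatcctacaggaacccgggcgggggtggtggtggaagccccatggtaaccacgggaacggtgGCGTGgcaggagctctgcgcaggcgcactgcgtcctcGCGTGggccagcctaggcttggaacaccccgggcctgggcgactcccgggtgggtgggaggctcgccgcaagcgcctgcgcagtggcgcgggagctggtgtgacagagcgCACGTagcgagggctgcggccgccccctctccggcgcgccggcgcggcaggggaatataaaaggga
Bnip3: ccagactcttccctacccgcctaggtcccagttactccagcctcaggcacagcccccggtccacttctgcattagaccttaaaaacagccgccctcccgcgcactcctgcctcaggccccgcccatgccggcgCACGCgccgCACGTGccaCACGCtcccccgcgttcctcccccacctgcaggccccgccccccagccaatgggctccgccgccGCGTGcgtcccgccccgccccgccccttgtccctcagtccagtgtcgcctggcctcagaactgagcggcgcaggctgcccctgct
Ldha: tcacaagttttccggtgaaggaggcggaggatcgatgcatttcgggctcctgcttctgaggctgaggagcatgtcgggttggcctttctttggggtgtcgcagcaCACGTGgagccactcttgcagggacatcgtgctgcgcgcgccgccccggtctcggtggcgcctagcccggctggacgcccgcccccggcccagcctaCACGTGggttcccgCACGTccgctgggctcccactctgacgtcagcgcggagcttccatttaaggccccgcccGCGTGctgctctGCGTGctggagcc
The Hk3 and Pfkl windows held 1 match each, P4ha1 held 3 and Bnip3 held 5. Hk1, Gpi1, Aldoa, Tpi1, Eno2, Pkm and Vegfa held none in this window. A match is a stretch of letters and not a measured binding site.

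Levels are given as normalized counts, the deposited read counts divided by a size factor for each library, and the reads recovered from them numbered 13797079 to 37572822 per library. LPS 3 and cpdA 3 stood apart from the other libraries, as the first components of variation show (40.5% and 28.8% of the variance). The 10 macrophage markers, all measured, summed to 560949 to 586576 normalized counts in 7 libraries, 323106 in LPS 3 and 385859 in cpdA 3. Most of that sum was Lyz2 (lysozyme, 447053 to 459826 in 7 libraries, 210386 in LPS 3 and 269049 in cpdA 3). Itgam was lowest in the same libraries (6344.9 in LPS 3 and 6966.5 in cpdA 3, beside 7939.6 to 9234.0). Emr1 was lowest in LPS 3 (29157) and Cd14 in cpdA 3 (12490). Timd4 was lowest of its group in LPS 3 (95.2 beside 194.6 and 202.8) and in cpdA 3 (25.4 beside 106.9 and 93.5). In DHA it lay at 57.5 to 89.2. Cd68, Csf1r, Mertk, Gata6 and Icam2 did not follow Lyz2 in both LPS 3 and cpdA 3. Cd68 lay at 33306 to 38110 in all 9, Csf1r was highest in cpdA 3 (21816 beside 7572 to 11559) and Mertk in LPS 3 (10615 beside 4301 to 6930). Gata6 was highest in cpdA 3 (405.6) and Icam2 in LPS 3 (72.6). Neutrophil markers (4 of 10 measured) summed to 281 to 509 in LPS, 522 to 615 in DHA and 172.9 to 610.5 in cpdA. Their lowest sums were in LPS 3 (281) and cpdA 3 (172.9). Mesothelium and fibroblast markers (7 of 7) summed to 24031 to 30811 in 8 libraries and 38746 in LPS 3. Mast cell markers (4 of 6) summed to 228 to 285 in LPS, 139 to 158 in DHA and 156 to 348 in cpdA, B cell markers (5 of 5) to 254 to 311, 183 to 230 and 232 to 320, and dendritic cell markers (3 of 4) to 152 to 199 in LPS and 110 to 136 in the 6 pretreated libraries. The dendritic sums did not overlap between LPS and either pretreatment, nor the mast and B cell sums between LPS and DHA. Lineage markers of T and NK cells (2 of 6 measured) summed to at most 19.1 and those of erythrocytes (1 of 4) to at most 5.8. DHA 1 and cpdA 1, which carry different treatment labels, were the most alike of the 36 pairs of libraries: over 9495 genes with at least 100 in every library their recovered reads differed by a chi-square of 1.70 per degree of freedom, against 4.05 for LPS 1 and LPS 2, the next pair. DHA 1 differed from DHA 2 by 31.7. This chi-square grows with depth, and DHA 1 had the fewest recovered reads (13797079). The SD of the log2 ratio over these genes was nearly equal, 0.123 for DHA 1 and cpdA 1 and 0.124 for LPS 1 and LPS 2. For DHA 1 and DHA 2 it was 0.323. Whether the label of DHA 1 or cpdA 1 is wrong, or a library was split, was not tested. Every count of DHA or cpdA libraries takes the labels as given. The part of these differences in the results was not tested, and results are also given without LPS 3 and cpdA 3, and without DHA 1 and cpdA 1. In bulk RNA, fewer cells of a type and less RNA per cell cannot be told apart.

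With DHA, 32 of the 38 members had a negative log2 change against LPS, and the median over members was -0.23, beside -0.001 over all genes kept. The hexokinase gene Hk3, the liver-type phosphofructokinase gene Pfkl, the collagen prolyl hydroxylase gene P4ha1 and the mitophagy gene Bnip3 had lower levels in all 3 DHA libraries than in any LPS library. No member passed the limma test with all 9 libraries (smallest Benjamini-Hochberg adjusted p = 0.214, for Pfkl), where 1 gene of 13895 did (0.00720%). At an unadjusted p under 0.05 there were 9 of 38 members, all lower, beside 926 lower and 1041 higher of 13895 genes. On recovered reads edgeR called 0 members and DESeq2 called 2. In 14 members (36.8%) all DHA libraries lay below all LPS libraries, beside 15.0% of all genes, and in 1 (2.63%, Gpi1) above, beside 13.0% of all genes.

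With cpdA, 26 members had a negative change and the median was -0.09, beside -0.004 over all genes. No member passed (smallest limma adjusted p = 0.224, Hk3), and 1 gene of all did (0.00720%). At an unadjusted p under 0.05 there were 3 of 38 members, all lower, beside 1118 lower and 912 higher of 13895 genes. The share of lower members was about that of lower genes. For cpdA, edgeR called 0 members and DESeq2 called 1. In 6 members (15.8%) all cpdA libraries lay below all LPS libraries, close to the 12.2% of all genes, and in 0 above, beside 10.7% of all genes. The DHA and cpdA comparisons use the same 3 LPS libraries, so a deviation of those libraries enters both. Against LPS, the mean of both pretreatments gave 30 negative changes, a median of -0.14 (-0.005 over all genes) and no member past limma (smallest adjusted p = 0.115, Hk3), while 10 genes of all passed (0.0720%). Of the 38 members 8 had an unadjusted p under 0.05, all lower, beside 1329 lower and 1243 higher of 13895 genes. For both pretreatments edgeR called 0 members, and DESeq2 called 3 lower (7.89%, Hk3, Pfkl and P4ha1, beside 3.27% of genes with an adjusted p). In 6 members (15.8%), Hk3, Pfkl, Pgk1, Ldha, Pfkfb3 and P4ha1, all 6 pretreated libraries lay below all 3 LPS libraries, beside 9.28% of all genes. In 0 members they lay above, beside 7.07%.

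**Figure D1:**
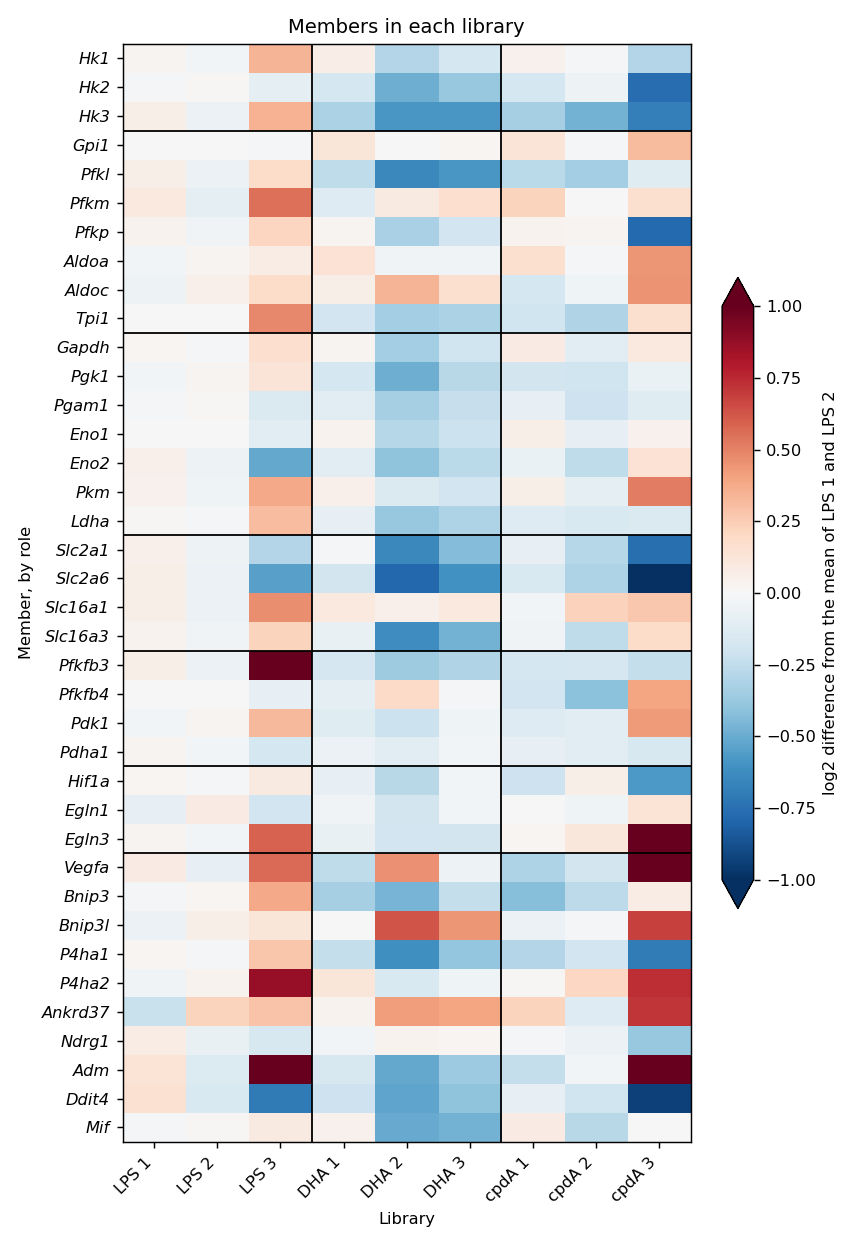
Members (rows, grouped by role) in each library (columns), as the log2 difference from the mean of LPS 1 and LPS 2; red is higher, blue lower, and values beyond 1 take the end colour. DHA 2 and DHA 3 are mostly blue, with a median over members of -0.31 and -0.20, while LPS 3 (0.18) and cpdA 3 (0.09) hold both strong red and strong blue.

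The median over members, against the mean of LPS 1 and LPS 2, was -0.08 in DHA 1, -0.31 in DHA 2 and -0.20 in DHA 3. It was -0.08 in cpdA 1, -0.12 in cpdA 2, 0.09 in cpdA 3 and 0.18 in LPS 3 (log2 differences), while the median of all genes lay between -0.015 and 0.015 in every library. The lower level was thus found in 5 of the 6 pretreated libraries, most in DHA 2 and DHA 3. Of the 38 members, 18 had their highest level in LPS 3 and 12 in cpdA 3, and 17 had their lowest in DHA 2 and 9 in cpdA 3.

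A fit without LPS 3 and cpdA 3, chosen after those libraries were seen to stand apart, gave medians of -0.16 for DHA and -0.11 for cpdA. For DHA it called 4 members lower (10.5%), beside 4.04% of all genes. Hk3 fell by 0.50 (SE 0.11; limma adjusted p = 0.0234), Pfkl fell by 0.49 (SE 0.11; 0.0248), P4ha1 fell by 0.41 (SE 0.11; 0.0438) and Bnip3 fell by 0.34 (SE 0.09; 0.0450), all on the log2 scale. For cpdA it called no member (0.885% of all genes were called lower), and for both pretreatments it called Hk3 and Bnip3 lower (5.26%, beside 3.01% of all genes). In 15 members (39.5%) the 5 remaining pretreated libraries lay below LPS 1 and LPS 2, beside 15.5% of all genes. The controls of this fit are LPS 1 and LPS 2, the most alike pair within a group, and the labels do not say whether they are separate cultures. Without cpdA 3 alone, limma called Hk3 and Pfkl lower with DHA (1.58% of all genes) and Hk3 for both pretreatments (1.46%). The direction of 4 members for DHA (Pfkm, Aldoa, Slc16a1 and Vegfa) and of 9 for cpdA (Hk1, Pfkm, Pfkp, Aldoc, Eno1, Eno2, Pkm, Egln1 and Bnip3l) was opposite without LPS 3 and cpdA 3, none of them past limma in either fit. With all 9 libraries weighted by their fit, limma called 20 members lower with DHA (52.6%, beside 14.8% of all genes). In that fit DHA 3 had a weight of 6.52 beside 0.514 and 0.723 for DHA 1 and DHA 2, so the DHA group was mostly 1 library, and LPS 3 and cpdA 3 had 0.223 and 0.13. Leaving out DHA 1 and cpdA 1 in place of LPS 3 and cpdA 3 gave 0 members for each comparison, and 0 of all genes as well.

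Where a pair of log2 changes follows, the first is DHA and the second cpdA, each against LPS with all 9 libraries; none passed limma. Hexokinases trap glucose in the cell as glucose 6-phosphate. Hk3, a hexokinase of myeloid cells (Entrez 212032), had normalized counts of 31590, 29168 and 38540 in LPS 1 to 3, 24318, 20255 and 20248 in DHA 1 to 3 and 24148, 21931 and 18932 in cpdA 1 to 3. Every pretreated library lay below every LPS library. The log2 change was -0.61 for DHA and for cpdA alike (SE 0.16 in each; limma adjusted p = 0.234 and 0.224), and DESeq2 on recovered reads called both (adjusted p = 0.0119 and 0.00942). Without LPS 3 and cpdA 3 the cpdA change of Hk3 was -0.40. Hk2, the inducible hexokinase, had 7083, 7179 and 6664 in LPS, 6320, 5073 and 5474 in DHA and 6302, 6879 and 4205 in cpdA. DHA libraries lay below LPS libraries, and the cpdA libraries overlapped them (log2 change -0.32 and -0.30; limma adjusted p = 0.443 and 0.466). The cpdA change of Hk2 was -0.08 without cpdA 3. Hk1, the housekeeping hexokinase, had log2 changes of -0.25 and -0.20 (-0.13 and 0.01 without LPS 3 and cpdA 3), and its groups overlapped.

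**Figure D2:**
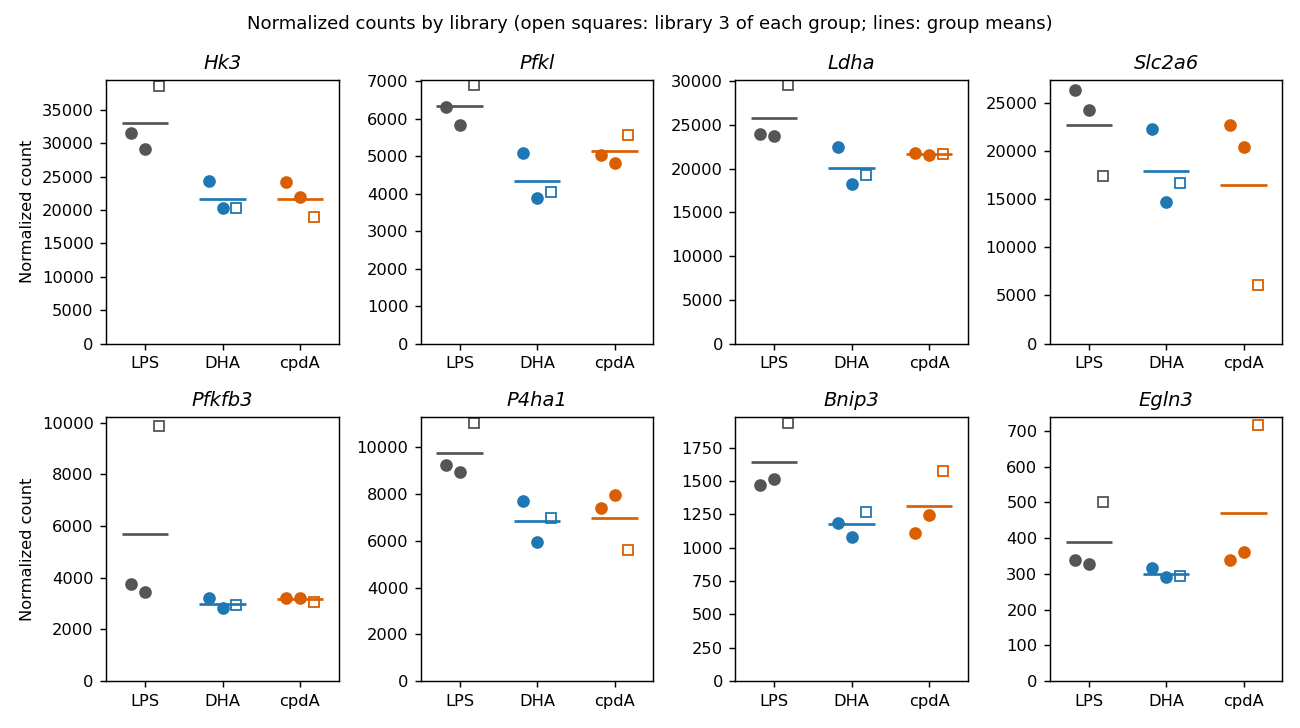
Normalized counts of 8 members by library; points are libraries, open squares are library 3 of each group and lines are group means, on axes that start at 0. Hk3 lies at 18932 to 24318 in the 6 pretreated libraries and at 29168 or more in LPS, while the LPS mean of Pfkfb3 is carried by LPS 3 (9863) and Slc2a6 drops to 6103 in cpdA 3.

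Per kilobase of exon, where levels of genes can be compared, Hk3 made up 82.2%, 81.1% and 84.2% of hexokinase transcripts in LPS 1 to 3 and 76.7% to 80.4% in the 6 pretreated libraries. Hk1 made up 6.81% to 7.11% in LPS and 8.25% to 8.90% with pretreatment. These shares of transcripts, which a scaling of a whole library does not alter, did not overlap between LPS and pretreated libraries. Of the 10 families compared this way, only hexokinases and the BNIP3 pair had such a share, and the difference was not tested. How often shares in other gene families do so was not computed. As levels, 9.28% of all genes lay lower and 7.07% higher in the pretreated libraries without overlap.

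In upper glycolysis, which prepares the sugar for splitting, Pfkl was the member with the lowest adjusted p. Phosphofructokinase 1 commits the sugar to glycolysis, and Pfkl encodes its liver-type subunit. Its normalized counts were 6315, 5824 and 6886 in LPS, 5083, 3885 and 4049 in DHA and 5041, 4803 and 5570 in cpdA. All pretreated libraries lay below all LPS libraries. The log2 change was -0.55 for DHA (SE 0.13; limma adjusted p = 0.214; DESeq2 adjusted p = 0.0129) and -0.30 for cpdA (SE 0.13; limma adjusted p = 0.334; DESeq2 adjusted p = 0.237). DESeq2 called 2 members lower for DHA, Hk3 and Pfkl (5.26%, beside 1.09% of genes with an adjusted p), and 1 for cpdA, Hk3 (2.63%, beside 1.65%).

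Pfkp, the platelet-type subunit, had log2 changes of -0.24 and -0.31 with DHA and cpdA, and Pfkm, the muscle type, of -0.14 and -0.05. Without cpdA 3 the cpdA change of Pfkp was -0.04, and without LPS 3 as well it was 0.03. Tpi1, the triose phosphate isomerase, had 8873, 8889 and 12420 in LPS, 7778, 7005 and 7137 in DHA and 7724, 7206 and 9923 in cpdA. DHA libraries lay below LPS libraries (log2 change -0.44, SE 0.17; limma adjusted p = 0.305; -0.28 without LPS 3 and cpdA 3), and cpdA 3 lay among them. Aldoa, the main aldolase here (99.3% or more of aldolase transcripts per kilobase in every library), had log2 changes of -0.00 and 0.17. Aldoc, the other aldolase, had log2 changes of 0.13 and 0.02, and Gpi1, glucose 6-phosphate isomerase, of 0.06 and 0.15. Gpi1 alone among the members had all DHA libraries (5365 to 5809) above all LPS libraries (5268 to 5363), by a margin of a few counts.

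In lower glycolysis, which yields ATP and pyruvate, all 7 members had a negative change with DHA (median -0.22) and 4 with cpdA (median -0.03). Pgk1, phosphoglycerate kinase, had 19065, 19853 and 21250 in LPS, 17258, 13863 and 16011 in DHA and 17127, 16900 and 18592 in cpdA. Ldha, lactate dehydrogenase A, had 24035, 23710 and 29628 in LPS, 22533, 18314 and 19326 in DHA and 21787, 21533 and 21648 in cpdA. For both genes every pretreated library lay below every LPS library. The log2 change of Pgk1 was -0.36 with DHA and -0.19 with cpdA, and that of Ldha -0.36 and -0.24, none past limma (adjusted p from 0.293 to 0.508). The cpdA change of Ldha was -0.14 without LPS 3 and cpdA 3.

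Gapdh, often taken as a reference gene, had 12341, 12001 and 13647 in LPS, 12408, 9631 and 10606 in DHA and 12887, 11232 and 13005 in cpdA. DHA 2 and DHA 3 were lowest, and the groups overlapped (log2 change -0.22 and -0.03). Pgam1, phosphoglycerate mutase, had log2 changes of -0.17 and -0.09, and Pkm, pyruvate kinase, of -0.22 and 0.03 (-0.10 with DHA without LPS 3 and cpdA 3). The enolase genes Eno1 and Eno2 had log2 changes of -0.12 and -0.09 with DHA and of 0.04 and 0.11 with cpdA. Eno1, Gapdh and others have near-identical copies elsewhere in the genome that could take or lend reads, which makes their levels uncertain.

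**Figure D3:**
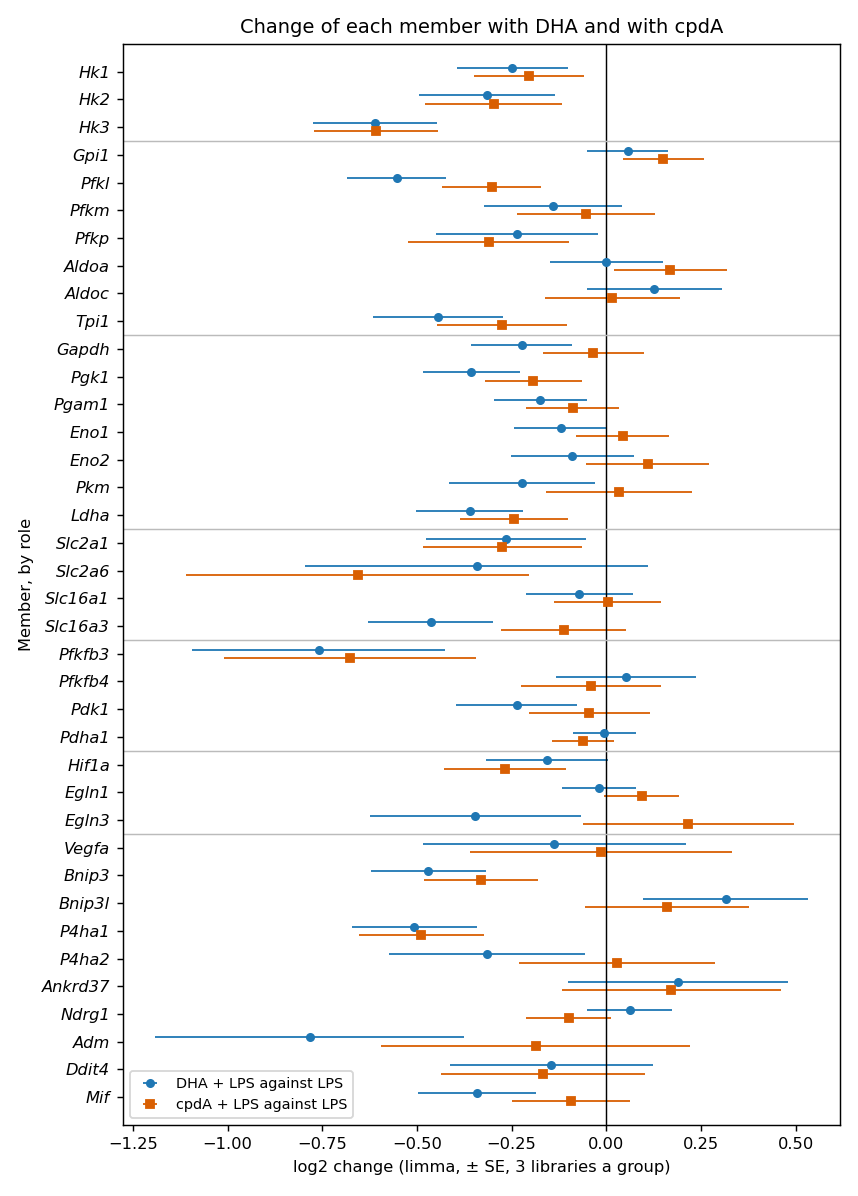
Log2 change of each member against LPS (limma, all 9 libraries), with DHA as blue circles and cpdA as orange squares; bars are 1 SE, grey lines part the roles. Most points lie left of 0 (32 for DHA and 26 for cpdA), Hk3 has the same change with both (-0.61), and the widest bars belong to Slc2a6 and Adm.

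Of the carriers, Slc2a6, a glucose transporter family member that macrophages induce, had the higher level per kilobase (10609 in LPS, beside 2045 for Slc2a1, the basal glucose carrier). Its normalized counts were 26410, 24257 and 17377 in LPS, 22305, 14693 and 16672 in DHA and 22745, 20473 and 6103 in cpdA. The groups overlapped, and cpdA 3 was the lowest library. Its log2 change was -0.34 with DHA and -0.66 with cpdA (SE 0.45 in each), and without LPS 3 and cpdA 3 it was -0.52 and -0.23 (limma adjusted p = 0.0635 and 0.694). Slc2a1 had log2 changes of -0.27 and -0.28.

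Slc16a3, the lactate exporter known as MCT4, had 4300, 4100 and 4909 in LPS, 3984, 2734 and 3028 in DHA and 4098, 3515 and 4758 in cpdA. DHA libraries lay below LPS libraries, and cpdA libraries overlapped them (log2 change -0.46 and -0.11; limma adjusted p = 0.293 and 0.789). Slc16a1, the related carrier MCT1, had log2 changes of -0.07 and 0.003.

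**Figure D4:**
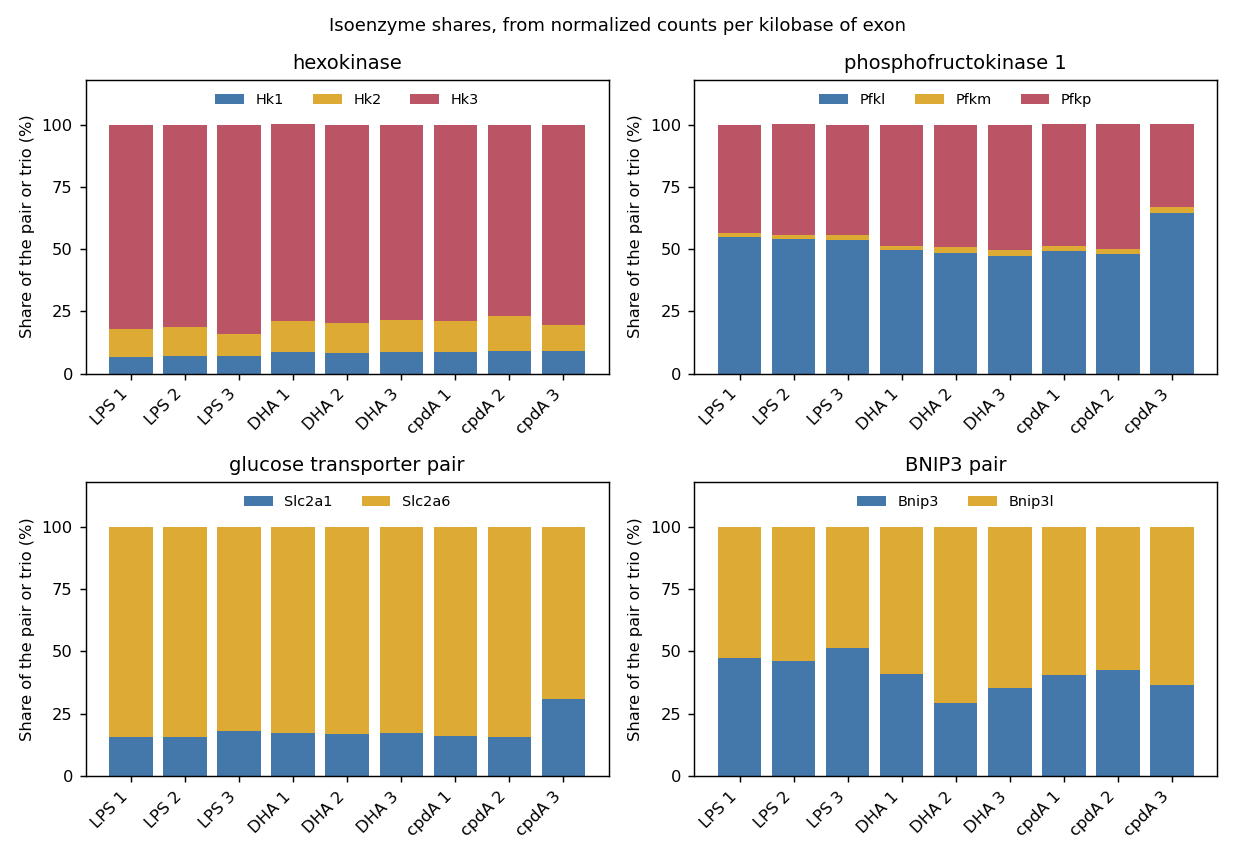
Share of each isoenzyme in its family (vertical axis, percent, from normalized counts per kilobase of exon) in each library, as stacked bars for hexokinases, phosphofructokinase 1, 2 glucose transporters and the BNIP3 pair. The Hk3 share is 81.1% to 84.2% in LPS and 76.7% to 80.4% after pretreatment, the Bnip3 share 46.1% to 51.2% and 29.2% to 42.7%, and the Pfkl share of phosphofructokinase 1 53.5% to 54.8% in LPS, 47.3% to 49.6% in 5 pretreated libraries and 64.5% in cpdA 3.

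Among the switches of flux, Pfkfb3, which makes the activator of phosphofructokinase 1, had 3768, 3459 and 9863 in LPS, 3212, 2819 and 2927 in DHA and 3202, 3213 and 3058 in cpdA. All pretreated libraries lay below all LPS libraries, but LPS 3 was far above LPS 1 and LPS 2. Its log2 change was -0.76 with DHA and -0.68 with cpdA (SE 0.33 in each; limma adjusted p = 0.352 and 0.385), and without LPS 3 and cpdA 3 it was -0.28 and -0.17 (adjusted p = 0.0737 and 0.546). Pfkfb4, of the same family, had log2 changes of 0.05 and -0.04. Pdk1, a kinase that blocks pyruvate dehydrogenase, had 653, 612 and 690 in DHA against 699, 725 and 892 in LPS, a change of -0.24 (-0.13 without LPS 3 and cpdA 3), and Pdha1, a subunit of that dehydrogenase, was the steadiest member (coefficient of variation 4.7% over 9 libraries).

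Hif1a, the oxygen-regulated subunit of HIF1, had 9392, 9162 and 9844 in LPS, 8781, 7663 and 9097 in DHA and 8035, 9685 and 6246 in cpdA. DHA libraries lay below LPS libraries, while cpdA 2 lay among them and cpdA 3 was lowest (log2 change -0.16 and -0.27; limma adjusted p = 0.677 and 0.464). The cpdA change of Hif1a was -0.07 without LPS 3 and cpdA 3. These are transcript levels, and HIF1α is known to be set largely by protein stability, which was not measured here. Egln1 had log2 changes of -0.02 and 0.09. Egln3 had 339, 327 and 501.4 in LPS, 317, 291 and 294 in DHA and 338, 360 and 718 in cpdA. The cpdA libraries lay above all DHA libraries, and cpdA 3 and LPS 3 were the highest.

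Of the 10 other HIF1 targets, P4ha1 and Bnip3 had the lowest adjusted p. P4ha1, which hydroxylates collagen, had 9240, 8968 and 11029 in LPS, 7695, 5939 and 6970 in DHA and 7416, 7949 and 5602 in cpdA. All pretreated libraries lay below all LPS libraries (log2 change -0.51 and -0.49, SE 0.17 in each; limma adjusted p = 0.272 and 0.252). Without LPS 3 and cpdA 3 the cpdA change of P4ha1 was -0.25.

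Bnip3, a mitochondrial receptor for mitophagy, had 1473, 1514 and 1937 in LPS, 1184, 1083 and 1268 in DHA and 1109, 1243 and 1575 in cpdA. DHA libraries lay below LPS libraries, and only cpdA 3 among the cpdA libraries reached into them (log2 change -0.47 and -0.33; limma adjusted p = 0.268 and 0.353). Its relative Bnip3l had 2885, 3126 and 3270 in LPS, 3014, 4633 and 4069 in DHA and 2890, 2955 and 4815 in cpdA. DHA 2, DHA 3 and cpdA 3 were high and the others lay near LPS (log2 change 0.32 and 0.16; limma adjusted p = 0.523 and 0.769). Bnip3 made up 47.4%, 46.1% and 51.2% of the pair per kilobase in LPS, 41.0%, 29.2% and 35.5% in DHA and 40.4%, 42.7% and 36.6% in cpdA, with no overlap.

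Adm, the vasodilator peptide adrenomedullin, had 348, 287 and 786 in LPS, 283, 221 and 245 in DHA and 268, 310 and 640 in cpdA. LPS 3 and cpdA 3 were high, so that the DHA change of -0.78 (SE 0.41) was -0.35 without these libraries. Vegfa, the angiogenic growth factor, and P4ha2, a second collagen prolyl hydroxylase, were likewise high in cpdA 3 (2122 and 888) and LPS 3 (1556 and 974) and had log2 changes of -0.14 and -0.31 with DHA. Without LPS 3 these were 0.05 and -0.02. Mif, a cytokine, had log2 changes of -0.34 and -0.09, and Ddit4, an inhibitor of mTORC1, of -0.15 and -0.17 (-0.38 with DHA without LPS 3 and cpdA 3). Ndrg1 had log2 changes of 0.06 and -0.10. Ankrd37, at 18.5 to 36.2 the lowest member, had log2 changes of 0.19 and 0.17.

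Between cpdA and DHA, at doses that differed (10 and 100 µM), no member passed limma (smallest adjusted p = 1), nor did any gene of all (0%). No member and 142 genes had an unadjusted p under 0.05, and edgeR and DESeq2 called 0 members. Of the 38 members, 27 had a higher mean log2 level with cpdA, with a median difference of 0.09 beside -0.015 over all genes. The largest differences, cpdA minus DHA, were in Adm (0.60, SE 0.41), Egln3 (0.56, SE 0.28) and Slc16a3 (0.35, SE 0.17). Without LPS 3 and cpdA 3 they were 0.21, 0.21 and 0.24. Egln3 was the 1 member (2.63%) with all cpdA libraries above all DHA libraries, beside 3.04% of all genes. For Hk3 the difference was 0.003 (SE 0.16), and a p that misses the threshold does not show that the compounds act alike.

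Members varied together in part. Over the 9 libraries, which share group and scaling, the 703 pairs of members had a median correlation of 0.25 in log2 level, with 80 pairs over 0.8 and 20 under -0.8. Pfkl and Pgk1 followed each other (r = 0.954), as did Hk3 and P4ha1 (0.943). Slc2a1 and Bnip3l went opposite ways (-0.934, and -0.905 in the 7 libraries without LPS 3 and cpdA 3), while Egln3 and Ndrg1 did so in all 9 (-0.942) but less in the 7 (-0.387).

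Other genes of glucose use and of the HIF pathway were taken from lists made with earlier results in view. Of these, 112 of 125 were measured and 109 kept. Of these 109, 1 was called higher and 0 lower for both pretreatments (limma), and their median change was 0.03. Without LPS 3 and cpdA 3 limma called 4 higher and 5 lower for both pretreatments, where 2.13% and 3.01% of all genes were called, and 8 higher and 6 lower for DHA, where 2.75% and 4.04% were. The 4 higher genes for both pretreatments, named after their values were seen, were Pck2, Slc16a6, Angptl4 and Hilpda. Angptl4 and Hilpda are from the list of further HIF targets and act in lipid handling. Among the lower ones were Pgm2, Edn1 (endothelin 1, a further HIF target), Max and Arrdc4. The gene called with all 9 libraries was Slc16a6, a carrier of the monocarboxylate family. It had 671, 680 and 524 in LPS, 1507, 1267 and 1466 in DHA and 1470, 1495 and 1036 in cpdA. All pretreated libraries lay above all LPS libraries (log2 change 1.13, SE 0.14; limma adjusted p = 0.0354).

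Pck2, the mitochondrial enzyme that makes phosphoenolpyruvate, had 190, 209 and 246 in LPS, 493, 325 and 378 in DHA and 463, 369 and 704 in cpdA. Pretreated libraries lay above LPS libraries without passing limma in all 9 libraries (log2 change 1.04 for both pretreatments; adjusted p = 0.0956). Pck2 passed limma without LPS 3 and cpdA 3 (adjusted p = 0.00332) and DESeq2 (adjusted p = 0.000718). Pcx, pyruvate carboxylase, had a log2 change of 1.04 too (limma adjusted p = 0.129, DESeq2 0.0228; 0.73 without LPS 3 and cpdA 3), from a normalized count of 38.1 ± 10.6 in LPS (SD, n = 3) to 55.8 to 124 with pretreatment. The 16 genes of the TCA cycle had a median of 0.07 and the 11 of the pentose phosphate pathway 0.18, where Taldo1 (transaldolase) had a log2 change of 0.39 and Rpe of -0.37. Among 12 glycogen genes, Pygl, a glycogen phosphorylase, had a log2 change of 0.44. The 25 further HIF targets had a median of -0.02, and none passed limma with all 9 libraries. Without LPS 3 and cpdA 3 limma called 2 of them higher and 2 lower for both pretreatments (2.13% and 3.01% of all genes). For DHA it called 4 higher and 3 lower (2.75% and 4.04% of all genes). Car12, a carbonic anhydrase, was at -1.75 and Cxcr4, a chemokine receptor, at 1.57, neither past limma with all 9 libraries. Car12 was at 162 in LPS 3 beside 34.8 and 26.5 in the other LPS libraries, and its change was -0.95 without LPS 3 (DESeq2 adjusted p with all libraries 0.0107). Cxcr4 was at 652, 339 and 460.0 in DHA 2, DHA 3 and cpdA 3 and at 60.9 to 102 in the others. The 9 genes that control the HIF pathway had a median of -0.07, with Vhl, which directs HIF1α to destruction, at -0.22. Max, the partner of MYC, had a log2 change of -0.63, Arrdc4 of -0.32, Pdpr, which regulates pyruvate dehydrogenase phosphatase, of 0.47, and Minpp1 of -0.49, each for both pretreatments and none past limma with all 9 libraries. DESeq2 called Max, Arrdc4 and Pdpr (adjusted p = 0.0353, 0.0355 and 0.0370), and limma without LPS 3 and cpdA 3 called Max and Arrdc4 (adjusted p = 0.0341 and 0.0235), with changes of -0.37 in each.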

How the data were processed

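RNA-seq of 9 libraries, grouped by their titles, was analysed from the table the authors deposited. The authors made its signal values before they were deposited by dividing each library's read counts by a size factor, as the values show. Per the submitters' processing notes, CASAVA 1.8.2, Bowtie2, DESeq and the build mm9 were used; how reads were counted, with which annotation and strand setting, is not given in the sources used here. The labels' growth and extract protocols belong to unrelated work and were set aside. Within 0.05, 99.915% to 100% of values above 0 were whole reads. Values were analysed as log2(value + 1), a scale that understates changes of low genes, with limma 3.58.1 (R 4.3.3; trend and robust options), all 9 libraries in 1 fit, and Benjamini-Hochberg adjustment over 13895 genes, threshold 0.05. Alternatives on the recovered reads were DESeq2 1.42.0 and the quasi-likelihood test of edgeR 4.0.16. The fit was also run on simulated counts with an equal spread for all genes and no libraries that stood apart. These libraries differ from that setting, so no result here rests on it. Exon lengths came from GENCODE basic (GRCm38), another build than the counting. All members are accounted for. Of each other list, genes past the test are named, or at most 2 with the largest change for both pretreatments, no overlap with LPS and a higher-group mean of 50 or more. Some genes are not reported here. Members and lists were chosen with earlier results of these data known. Deviations of same-number libraries from their group means correlated at 0.387, 0.234 and 0.437 for LPS and cpdA, where other-number pairs reached 0.292. The 0.437 belongs to LPS 3 and cpdA 3, which both stood apart. For LPS and DHA the correlations were 0.14, -0.065 and 0.02, where other-number pairs reached 0.129. For DHA and cpdA they were 0.407, -0.345 and 0.013, where other-number pairs reached 0.452 (DHA 2 and cpdA 3). Whether same-number libraries are paired stays undecided, and the main fit treated them as unpaired. Depth was 13797079 to 37572822 recovered reads a library.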

Additional observations from a re-analysis of the deposited data

How the results depend on the processing

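The number of members past the threshold depended on which libraries and test were used. For DHA against LPS it was 0 with all 9 libraries in limma, 4 without LPS 3 and cpdA 3 in limma and 4 in edgeR, 2 with DESeq2, 21 with library weights, and 20 in a fit of 5 libraries without LPS 3, cpdA 3, DHA 1 and cpdA 1, which leaves cpdA with 1 library that is assumed to vary like the others. For cpdA against LPS it was 0, with 1 by DESeq2 (beside 391 of all genes) and 2 with library weights (beside 563 of 13895 genes). For cpdA against DHA it was 0, with 1 (Bnip3l, lower with cpdA) in the 5-library fit. For both pretreatments against LPS it was 0 with all libraries, 2 without LPS 3 and cpdA 3 in limma and 3 in edgeR, 3 with DESeq2, 10 with library weights and 11 in the 5-library fit. In that fit Eno2, uncalled with all libraries, had a change of -0.29 beside 0.01. These member counts are to be read against those over all genes. With library weights 4303 of 13895 genes were called for DHA and 2729 for both pretreatments. DESeq2 called 315 and 836, and limma without LPS 3 and cpdA 3 called 943 and 714. Leaving out each library in turn gave 0 to 2 members for DHA and 0 to 1 for both pretreatments, and the highest counts came without cpdA 3; without it, limma called Hk3 and Pfkl for DHA. The replicate block gave 0 members in every comparison and changed no call of a member. Other pseudocounts, filters, TMM scaling and limma without its trend and robust options gave 0 members. The cause was not tested.

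Counts over all genes moved more. For DHA, cpdA and both pretreatments they were 1, 1 and 10 with all libraries, 943, 222 and 714 without LPS 3 and cpdA 3, 4303, 563 and 2729 with library weights, 315, 391 and 836 with DESeq2, 1157, 290 and 862 with edgeR without those libraries, 0, 0 and 0 with the replicate block, and 3086, 250 and 1874 in the 5-library fit. For cpdA against DHA they were 0 in all but the 5-library fit, where they were 286. Without LPS 3 and cpdA 3, 4 members changed sign for DHA and 9 for cpdA, none of them past a test. The fits with libraries left out in pairs or more, the weights and edgeR without LPS 3 and cpdA 3 were chosen after seeing the data. Depth ran from 13797079 to 37572822 reads a library and its part in the counts was not tested; Ankrd37, at 18.5 to 36.2, had the fewest normalized counts of the members.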
